A study of Mus musculus with 44 samples.

Results

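The expression of 10 genes for apolipoproteins and lipoprotein assembly was examined in liver and skeletal muscle of Slc16a13 knockout (KO) and wild-type (WT) mice. The genes were chosen by name, with earlier results of these data known. They were Apoa1, Apoa2, Apoa4, Apoa5, Apob, Apoc1, Apoc2, Apoc3, Apoe and Mttp, 10 of the 38202 genes in the deposited tables. Each symbol matched 1 Ensembl identifier: ENSMUSG00000032083 (Apoa1), ENSMUSG00000005681 (Apoa2), ENSMUSG00000032080 (Apoa4), ENSMUSG00000032079 (Apoa5), ENSMUSG00000020609 (Apob), ENSMUSG00000040564 (Apoc1), ENSMUSG00000002992 (Apoc2), ENSMUSG00000032081 (Apoc3), ENSMUSG00000002985 (Apoe) and ENSMUSG00000028158 (Mttp). RNA-Seq was performed on poly(A) RNA from both tissues of 11 WT and 11 KO mice, which gave 44 libraries in 4 groups (liver WT, liver KO, muscle WT, muscle KO). All mice were male littermates on a C57BL/6N background, were 20 weeks old, had eaten a high-fat diet (HFD) for 15 weeks and were killed after an overnight fast. WT and KO mice differed in Slc16a13, which codes for a lactate transporter. In KO mice the promoter and first exons of this gene were deleted with CRISPR/Cas9 in the germ line, so that every tissue carried the deletion. Mice without the HFD were not analysed here, so an effect of the diet cannot be told apart in these values.

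Apolipoproteins are the proteins on the surface of lipoproteins, the particles that carry triglyceride and cholesterol in blood. Hepatocytes build very low density lipoprotein (VLDL) around the very large protein encoded by Apob, to which microsomal triglyceride transfer protein (Mttp) adds lipid in the endoplasmic reticulum. Apoa1 and Apoa2 are the main proteins of high density lipoprotein (HDL). Apoc1, Apoc2 and Apoc3 are small proteins that move between particles and set how fast they are broken down, Apoa5 increases that breakdown, Apoa4 is made in intestine and liver, and Apoe binds the receptors that clear remnant particles. Apoa1, Apoc3, Apoa4 and Apoa5 lie side by side in 1 gene cluster, and Apoe, Apoc1 and Apoc2 lie in another together with Apoc4.

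Total counts on genes ranged from 20150712 to 35218243 reads per library. Slc16a13 was counted with 99 to 302 reads in WT livers and 0 to 8 reads in KO livers. In muscle it was counted with 4 to 22 reads in WT libraries and 11 to 40 in those labelled KO. The count was thus not lower, as the label would have it, and could not bear the label out. These are therefore called the muscle libraries labelled KO below. The paper describes expression of the gene in skeletal muscle as marginal, and whether a label is wrong was not tested. Counts are per gene, and the deletion does not cover the whole gene. The paper reports efficient deletion in multiple tissues of KO mice, by qRT-PCR with primers in the deleted exons. By marker genes the tissues matched their labels: 10 hepatocyte markers summed to 92441 to 125900 CPM (counts scaled to a common library size) in WT liver and 4.42 to 13.6 in WT muscle, and 8 muscle fibre markers to 147810 to 205800 in WT muscle and 2.58 to 59.9 in WT liver. A library's length slope was computed as the slope, across genes, of its log2 CPM on log2 gene length, relative to the mean of the libraries of its tissue. It lay between 0.04 and 0.10 in WT livers, but below 0 in 4 of the 11 KO livers (mice 532, 583, 602 and 611), where it went down to -0.54. In these 4 livers a smaller share of reads thus fell on long genes than in any WT liver, and the liver results of the 10 genes are given with and without them.

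The 10 genes took a large part of the liver RNA. Together they held 4.58% ± 0.19 (SD, n = 11) of all reads in WT livers, of which Apoe alone took 1.55% ± 0.14, Apoa2 0.783% ± 0.039, Apob 0.722% ± 0.047 and Apoa1 0.617% ± 0.129. In KO livers the share was 4.99% ± 1.09 (SD, n = 11). It was 6.02% ± 1.29 in the 4 livers with a length slope below 0 and 4.41% ± 0.19 in the other 7.

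Levels of different genes were compared per length, in the deposited RPKM (reads scaled to gene length in kilobases and to library size). In WT liver the order was Apoe (18181 ± 1813), Apoa2 (16621 ± 818), Apoc1 (6844 ± 461), Apoa1 (6161 ± 1285), Apoc3 (3223 ± 300), Apoa4 (1263 ± 592), Apob (1203 ± 86), Apoa5 (645 ± 102), Apoc2 (605 ± 130) and Mttp (97.9 ± 8.9, all SD, n = 11). The ranges over mice overlapped between Apoe and Apoa2, between Apoc1 and Apoa1, between Apoa4 and Apob and between Apoa5 and Apoc2, so these neighbours were not set apart. All other neighbours were separated in 11 of 11 mice. This order rests on the lengths the authors divided by. For Apob the length implied by its counts and RPKM was 5370 to 6648 bases in WT livers, against 13934 bases of exons in the GENCODE M21 annotation. With the GENCODE length, Apob was at an RPKM of 518 ± 33, below Apoa5 at 593 ± 94. Apoa2 then stood above Apoe (14580.0 ± 717 and 7238 ± 671) and Apoa1 above Apoc1 (4994 ± 1044 and 3933 ± 265).

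**Figure D1:**
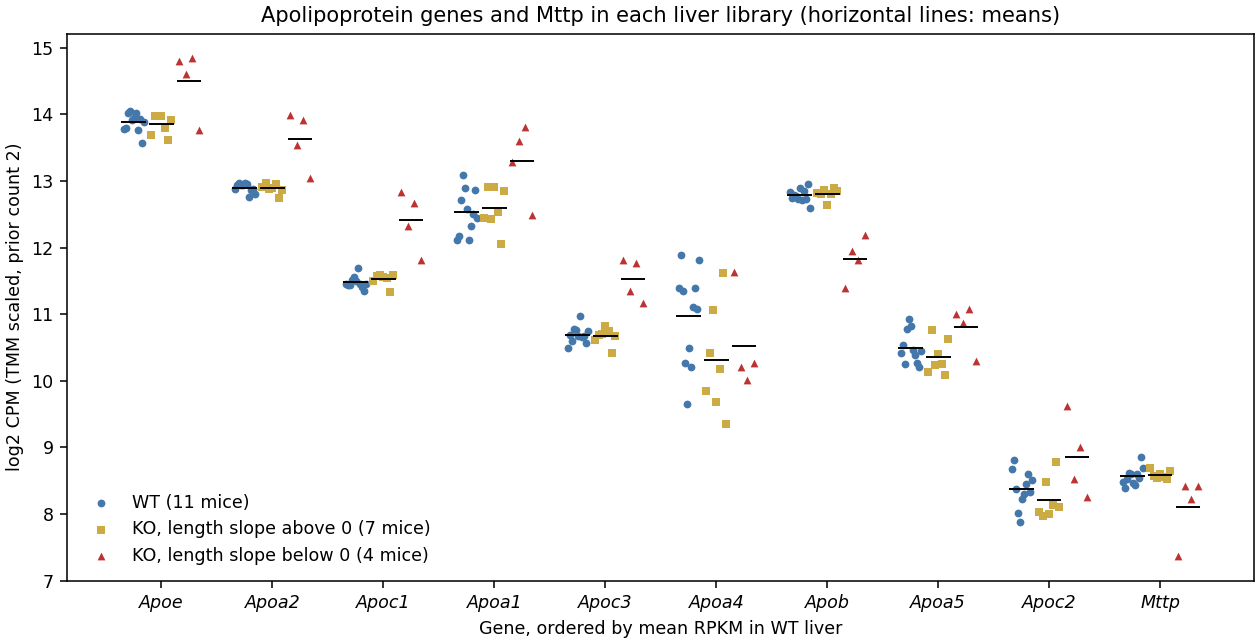
Log2 CPM of the 10 genes (y axis) in each of 22 livers, with genes ordered on the x axis by mean RPKM in WT liver and horizontal lines at group means. The 7 KO livers with a length slope above 0 overlap with the WT livers, while the 4 others lie above all WT livers for Apoa2, Apoc1 and Apoc3 and below them for Apob.

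The liver comparison asked whether loss of Slc16a13 changed these genes in HFD-fed mice. None of the 10 passed the test: 0 had an adjusted p under 0.05 (edgeR, quasi-likelihood F-test, adjusted by Benjamini and Hochberg), against 0.0231% of the 13005 genes tested (3 genes, Slc16a13 among them). All 10 passed the filter on low counts. At an unadjusted p under 0.05 there were 3 (Apoa2, Apoc1 and Apoc3, higher in KO livers), against 12.9% of all genes tested. The median log2 fold change over the 10 was 0.20, and over all genes tested it was -0.01. Without the 4 KO livers, 0 of the 10 passed, against 0.0227% of the 13210 genes then tested, 0 were under an unadjusted p of 0.05, where 2.96% of all genes were, and the median over the 10 was -0.02. In bulk tissue a difference in the number of cells of a type and one in RNA per cell cannot be told apart.

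Of the 10 genes, Apoc1 had the smallest p in the full comparison and Apoc3 the next, both higher in mean in KO livers. Apoc1, an inhibitor of lipoprotein uptake, was at 2618 to 3316 CPM in WT livers (median 2814) and 2569 to 7280 CPM in KO livers (median 3071). The KO livers above the WT range were the 4 with a length slope below 0, at 3591 to 7280 CPM, and the other 7 lay between 2569 and 3073 CPM. The log2 fold change was 0.46 (SE 0.16, unadjusted p = 0.0078, adjusted p = 0.38 from edgeR's test), and without the 4 livers it was 0.04 (SE 0.05). Apoc3, an inhibitor of lipoprotein lipase and of remnant clearance, was at 1446 to 2009 CPM in WT livers (median 1641) and 1362 to 3609 CPM in KO livers (median 1727). Its log2 fold change of 0.36 (SE 0.15, adjusted p = 0.38) went to -0.03 (SE 0.06) without them. Apoc2, the cofactor that lipoprotein lipase needs, was at 237 to 448 CPM in WT livers (median 333) and 250 to 790 CPM in KO livers (median 305). Its log2 fold change was 0.14 (SE 0.17, adjusted p = 0.65) and turned to -0.16 (SE 0.13) without the 4 livers.

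The HDL genes and Apoe were also highest in the same 4 livers in mean. Apoa2 varied little among WT livers, from 6915 to 8054 CPM (median 7875), and ran from 6902 to 16282 CPM in KO livers (median 7984). All 4 livers with a length slope below 0 were above the highest WT liver, and the other 7 were not. The log2 fold change was 0.32 (SE 0.14, adjusted p = 0.38), and -0.01 (SE 0.05) without the 4. Apoa1 was at 4446 to 8754 CPM in WT livers (median 5824) and 4267 to 14340.0 CPM in KO livers (median 7377). Its log2 fold change was 0.37 (SE 0.18, adjusted p = 0.38), and 0.05 (SE 0.15) without the 4. Apoe, the receptor ligand, was at 12145 to 16966 CPM in WT livers (median 15493) and 12563 to 29366 CPM in KO livers (median 16164), a log2 fold change of 0.27 (SE 0.14, adjusted p = 0.38), or -0.03 (SE 0.07) without them.

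Apob and Mttp, the genes of the VLDL core, were lowest in the same 4 livers in mean. Apob was at 6218 to 7972 CPM in WT livers (median 7038) and 2679 to 7597 CPM in KO livers (median 7148). The 4 livers with a length slope below 0 lay at or under 4653 CPM, while the other 7 KO livers lay between 6357 and 7597 CPM, inside the WT range. The log2 fold change was -0.25 (SE 0.15, adjusted p = 0.40), and 0.03 (SE 0.05) without the 4. Mttp was at 337 to 466 CPM in WT livers (median 373) and 166 to 413 CPM in KO livers (median 373). Its log2 fold change was -0.12 (SE 0.11, adjusted p = 0.51), and 0.02 (SE 0.05) without them. Over the 7 other KO livers, Mttp held to within 368 to 413 CPM.

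Apoa4 kept both the direction and about the size of its difference without the 4 livers. Apoa4 was at 803 to 3776 CPM in WT livers (median 2199) and 655 to 3171 CPM in KO livers (median 1182). The groups overlapped over most of their range, with 1 KO liver below the lowest WT liver. Its log2 fold change was -0.54 (SE 0.29, unadjusted p = 0.078, adjusted p = 0.39), and -0.61 (SE 0.33, unadjusted p = 0.082) without the 4, and neither comparison passed the test after adjustment. Apoa5, an activator of triglyceride breakdown, was at 1178 to 1946.5 CPM in WT livers (median 1393) and 1089 to 2174 CPM in KO livers (median 1354), with a log2 fold change of 0.05 (SE 0.13, adjusted p = 0.84), or -0.14 (SE 0.11) without them.

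Gene length chose the 4 livers, so the following values by length are a description of that choice. Apoc1, with an implied length of 427 bases, was 0.93 higher in log2 CPM than the WT mean, Apoc3 (527 bases) 0.83 higher and Apoa2 (471 bases) 0.72 higher. Mttp (3973 bases) was at -0.46 and Apob (6031 bases) at -0.95. Over the 10 genes, the difference and log2 length had Pearson's r = -0.90, across genes that share the same libraries, and r = -0.11 in the other 7 KO livers. All 4 livers lay outside the WT range for 4 of the 10 genes, against 18.9% of all genes tested. They were above it for Apoa2, Apoc1 and Apoc3 (7.57% of all genes) and below it for Apob (11.3% of all genes). With scaling to library size alone, which moved the median of all genes in these livers from -0.03 to -0.14, the 10 directions stayed as they were. With gene length removed by a loess in each library, Apoc2 turned to -0.11 and most other differences came closer to 0. Apoa2 was then at 0.09 with 2 of 4 livers above the WT range, Apoc3 at 0.22 with 2 of 4 above it, Apoe at 0.17 with 2 above and 1 below, and Mttp at -0.07 with 1 below. Apob was at -0.30 with 3 of 4 below the WT range, and Apoc1 at 0.28 with 3 of 4 above it. Apoa1 was at 0.36 and Apoa5 at 0.34, each with 2 of 4 above it, and Apoa4 at -0.55 with none outside it.

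**Figure D2:**
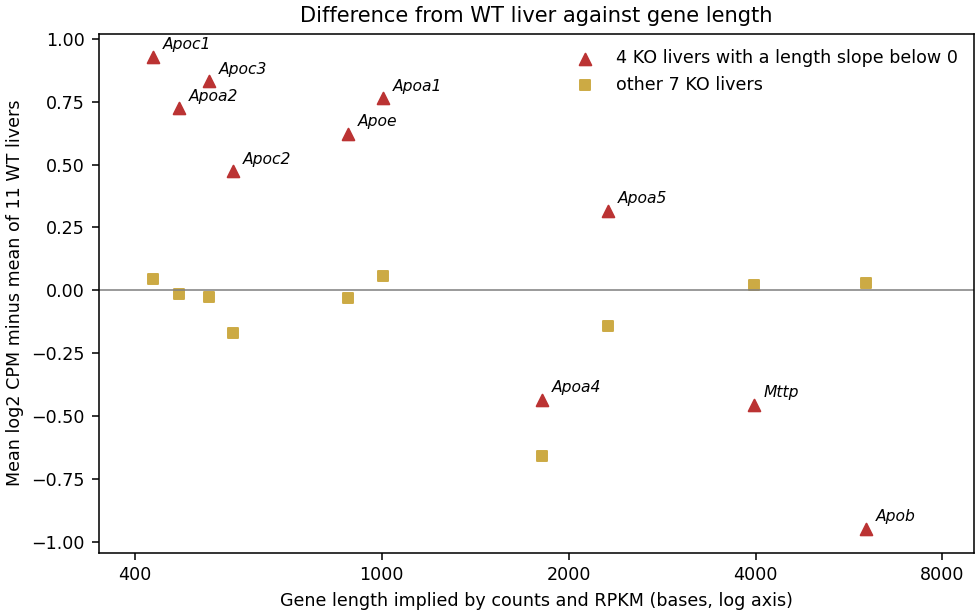
Mean log2 CPM minus the mean of 11 WT livers (y axis) against implied gene length in bases (x axis, log scale) for the 10 genes, as triangles for the 4 KO livers with a length slope below 0 and squares for the other 7. The triangles fall from 0.93 for Apoc1 to -0.95 for Apob, while the squares stay within 0.17 of 0 except Apoa4 at -0.66.

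The implied length itself moved with these livers for Apob. It was 5370 to 6648 bases in WT livers and 5539 to 6430 in the other 7 KO livers, but 2650, 2961, 3502 and 4357 bases in mice 532, 602, 583 and 611. In deposited RPKM, which carry that shorter length, the median of Apob was 1053 in the 4 livers and 1225 in WT livers, a smaller gap than in CPM. Apoe also varied, from 844 to 873 bases in WT livers and from 872 to 978 bases in the 4. The other 8 genes had lengths that differed little between the groups. How the authors set the length was not given in the sources used here.

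Marker genes of other cell types were counted beside these results. The summed level of the 6 Kupffer cell markers was 281 to 354 CPM in WT livers, 386 to 800 CPM in the 4 KO livers and 241 to 386 CPM in the other 7. That of 9 macrophage markers, cells that also make Apoe, was 347 to 452, 423 to 1155 and 316 to 510 CPM. All markers of both lists had counts in all 3 groups. The 10 hepatocyte markers summed to 92441 to 125900 CPM in WT livers, 120360 to 143270 CPM in the 4 livers and 103560 to 129070 CPM in the other 7. Summed endothelial markers (4 genes) were at 110 to 140, 82.2 to 120 and 113 to 148 CPM in the same order. Fibroblast markers were at 121 to 239, 105 to 161 and 115 to 188 CPM, and adipocyte markers at 18.8 to 125, 23.4 to 67.7 and 16.3 to 82.8 CPM. Muscle fibre markers were at 2.58 to 59.9, 3.71 to 23.2 and 0.80 to 4.67 CPM. The 4 enterocyte markers summed to 106 to 152 CPM in WT livers, 107 to 254 CPM in the 4 livers and 107 to 158 CPM in the other 7, with 3 of the 4 counted in each group and a median of 0 for Alpi and Lct. The part of these cells in the results was not tested.

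Genes that work with the 10 were followed as lists. None of the lists had a gene past an adjusted p of 0.05 in liver. Over all genes tested, 12.9% were at an unadjusted p under 0.05, and 2.96% without the 4 livers. Of 15 tested genes for other apolipoproteins, 8 were at an unadjusted p under 0.05, all higher in KO livers, and 1 was without the 4 livers. Among them Clu, which codes for clusterin, had the smallest p, with a log2 fold change of 0.28 (SE 0.09, adjusted p = 0.38) and 0.11 (SE 0.06) without the 4. Apoc4, the neighbour of Apoc2, was at 0.37 (SE 0.17) and -0.06 (SE 0.06). The genes of assembly and secretion (20 tested) had 2 at an unadjusted p under 0.05 and 0 without the 4 livers, with a median of 0.03 and 0.0029. Dgat1, an enzyme of triglyceride synthesis, was at 0.22 (SE 0.08, adjusted p = 0.38), and 0.05 (SE 0.05) without them. Among the 10 genes of HDL formation, Lcat, the enzyme that esterifies cholesterol on HDL, had the smallest p at 0.23 (SE 0.09, adjusted p = 0.38), and was at 0.13 (SE 0.08) without the 4. Among 7 genes of lipolysis it was Lmf1, which matures lipases, at 0.24 (SE 0.09, adjusted p = 0.38), and 0.08 (SE 0.05) without the 4, where the median of the lipolysis list went from 0.21 to -0.02 and the genes above 0 from 6 to 2. Of 11 tested receptors and their regulators, 2 were at an unadjusted p under 0.05, with a median of -0.03, and 0 without the 4 livers, with a median of 0.02. The 3 genes of Apob mRNA editing had 0 at an unadjusted p under 0.05, with Rbm47 at -0.24 (SE 0.14), and -0.06 (SE 0.11) without the 4. Of 20 transcription factors, Srebf1, a regulator of fatty acid synthesis, was at -0.25 (SE 0.11, adjusted p = 0.38), and -0.22 (SE 0.13) without the 4. The 9 neighbours of the 2 gene clusters had 0 at an unadjusted p under 0.05. The lists of HDL formation, lipolysis and transcription factors had 2 each, and 0 each without the 4 livers.

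Among mice of 1 genotype the genes differed widely in how much they varied. The SD of log2 CPM over 11 WT livers was 0.72 for Apoa4, higher than in 97.1% of the 13005 genes, and the highest liver was 4.70-fold above the lowest. Apoa1 (0.33), Apoc2 (0.27) and Apoa5 (0.24) followed. Apoa2 (0.07), Apoc1 (0.09) and Apob (0.10) had the smallest SDs of the 10, where the median was 0.17 over all genes and 0.12 over the 1311 genes above 100 CPM. Among those 1311 genes, the SD was smaller than that of Apoa2 in 16.4%, of Apoc1 in 28.5% and of Apob in 35.9%, and smaller than that of Apoa4 in 98.6%. The 7 other KO livers gave 0.80 for Apoa4, 0.07 for Apoa2, 0.09 for Apoc1 and 0.08 for Apob.

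Apoa4 and Apoc2, which lie on different chromosomes, rose and fell together among WT livers. Mouse 537 had the lowest level of both (803 and 237 CPM) and mouse 528 the highest of both (3776 and 448 CPM). Pearson's r of log2 CPM was 0.90 (permutation p = 0.00013, adjusted p = 0.0059 over 45 pairs of members) and Spearman's rho 0.93 (permutation p = 0.00011, adjusted p = 0.0050, n = 11). Without the 2 livers farthest from the median of Apoa4, r was 0.89. This was the only pair of 45 past the threshold. Among the 7 other KO livers r was 0.86 (exact permutation p = 0.017, adjusted p = 0.16) and rho 0.54 (exact permutation p = 0.24), and without the 2 farthest livers r was -0.30, so that relation rested on those livers. No r was computed with the 4 remaining KO livers. Of these, 2 lay above the WT range for Apoc2 and 0 lay outside it for Apoa4.

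**Figure D3:**
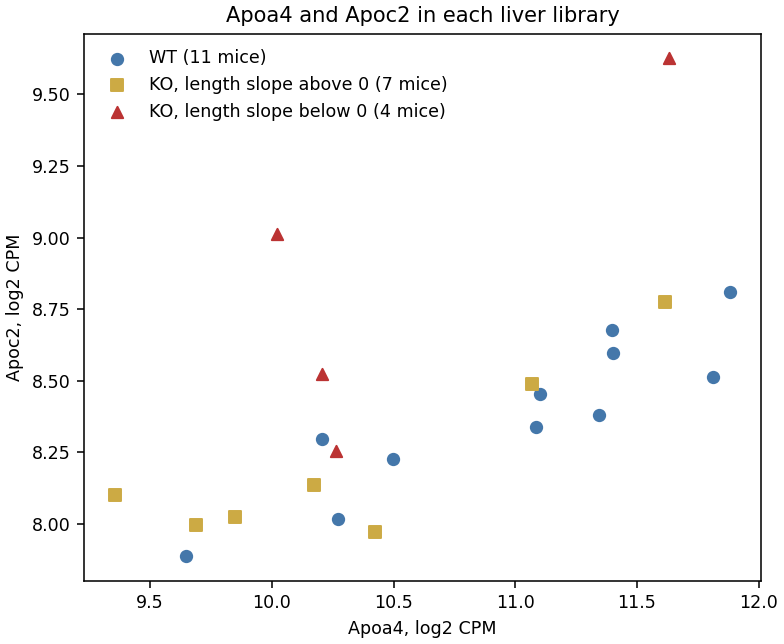
Log2 CPM of Apoc2 (y axis) against Apoa4 (x axis) in each liver, with circles for 11 WT mice, squares for 7 KO mice with a length slope above 0 and triangles for the other 4. The WT circles rise from lower left to upper right (r = 0.90), and 3 of the triangles lie above the WT circles of like Apoa4 level.

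Other pairs did not pass the adjustment. Apoa1 ran against Apoc2 among WT livers, with r = -0.74 (permutation p = 0.0099, adjusted p = 0.15) and rho = -0.70 (permutation p = 0.020, adjusted p = 0.15), and r = -0.60 without the 2 farthest. Among the 7 other KO livers the same pair had r = -0.84 (exact permutation p = 0.0067, adjusted p = 0.15) and rho = -0.86 (exact permutation p = 0.024, adjusted p = 0.36). Apoc1 and Apoc3 had r = 0.82 (permutation p = 0.0039, adjusted p = 0.087) and rho = 0.57 (permutation p = 0.071, adjusted p = 0.31) in WT livers, which fell to r = 0.47 without the 2 farthest. Apoa4 and its cluster neighbour Apoa5 had r = -0.68 (permutation p = 0.025, adjusted p = 0.22) and rho = -0.42 (permutation p = 0.20, adjusted p = 0.43). Apoa4 and Apoc1 had r = -0.66 (permutation p = 0.021, adjusted p = 0.22) and rho = -0.72 (permutation p = 0.016, adjusted p = 0.15). This relation depended on the scaling, with r = -0.81 with gene length removed (adjusted p = 0.048, permutation test) and -0.18 with library size alone.

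The promoters of Apoa4 and Apoc2 are shown because these genes varied together, that of Apoa1 because it lies in the cluster of Apoa4, and that of Mttp because it differs from them in sequence. RefSeq windows of 300 bases, with 250 bases before and 50 after a transcription start, were found for 8 of the 10 genes (GRCm38.p6), and the first window listed was used. Apoc1 and Apoc3 had none. Capitals mark matches, on either strand, to 6 short motifs. They are the letters TATAAA of a TATA box, CCAAT of a box of that name and GGGCGG of a GC box. The others are AGGTCA, the half-site that many nuclear receptors bind, its variant AGTTCA, and TGACGT, the core of a cAMP response element. The windows are Apoa4 at chr9:46240594-46240893 (plus strand), Apoc2 at chr7:19677892-19678191 (minus strand), Apoa1 at chr9:46228380-46228679 (plus strand) and Mttp at chr3:138143369-138143668 (minus strand), each printed 5′ to 3′ on the gene's strand.
Apoa4: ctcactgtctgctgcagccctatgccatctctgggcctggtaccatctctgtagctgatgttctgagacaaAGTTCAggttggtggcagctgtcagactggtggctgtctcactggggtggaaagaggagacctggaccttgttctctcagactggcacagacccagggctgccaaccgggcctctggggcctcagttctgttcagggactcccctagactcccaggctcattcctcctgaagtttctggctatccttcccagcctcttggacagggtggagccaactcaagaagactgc
Apoc2: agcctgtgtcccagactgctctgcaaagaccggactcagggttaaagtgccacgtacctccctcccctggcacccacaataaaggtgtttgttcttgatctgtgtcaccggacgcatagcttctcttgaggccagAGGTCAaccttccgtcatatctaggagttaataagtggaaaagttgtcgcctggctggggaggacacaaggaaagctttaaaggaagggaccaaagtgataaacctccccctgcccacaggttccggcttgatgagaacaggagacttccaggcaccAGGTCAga
Apoa1: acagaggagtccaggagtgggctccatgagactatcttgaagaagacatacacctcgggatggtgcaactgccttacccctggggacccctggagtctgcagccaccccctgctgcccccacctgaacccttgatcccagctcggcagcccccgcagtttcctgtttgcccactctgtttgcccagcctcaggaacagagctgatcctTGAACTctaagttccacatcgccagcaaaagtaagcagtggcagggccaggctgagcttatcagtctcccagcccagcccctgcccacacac
Mttp: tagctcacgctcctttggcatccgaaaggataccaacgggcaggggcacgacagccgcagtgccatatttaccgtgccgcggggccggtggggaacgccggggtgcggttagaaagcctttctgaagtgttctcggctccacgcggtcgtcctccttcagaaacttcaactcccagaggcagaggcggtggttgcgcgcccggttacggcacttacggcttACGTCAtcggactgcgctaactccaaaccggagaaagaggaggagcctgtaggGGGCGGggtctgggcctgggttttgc

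Apoa4 and Apoc2 each held a nuclear receptor half-site, but of different letters. Apoa4 had AGTTCA with its first base at -179 from the start, and Apoc2 had AGGTCA at -115 and at 43. Apoa1 had AGTTCA on the opposite strand at -42. AGTTCA was in 14% of all 32851 windows and AGGTCA in 16.3%, so such matches are common. Mttp alone of the 8 held TGACGT (on the opposite strand at -29, in 7.51% of all windows) and GGGCGG (at 25, in 35.7%). TATAAA was in 3 of the 8 (Apoa2, Apoa5 and Apob) and in 13.6% of all windows, and CCAAT was in Apoa2 and in 37.4% of all. Mttp was the window rich in CpG, with 27 CpG and an observed to expected ratio of 0.945, above 90.7% of all windows. The ratio was 0.041 in Apoa4, with 1 CpG, 0.158 in Apoa1 and between 0.173 and 0.403 in the other 5. A match describes letters in this window and not a bound site.

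For each gene the 1 gene with the most similar pattern over 11 WT livers was taken from the 13005 tested, so that each r below is the highest of many. For Apoa4 the 5 nearest were Csf1 (r = 0.96), Cd81 (0.96), Dennd2d (0.96), Gm10680 (0.95) and Trappc2l (0.94). Over the 7 other KO livers their r with Apoa4 was -0.01, 0.51, 0.49, 0.85 and 0.17. Apoc2 was nearest to Pyroxd2, with r = 0.97 in WT livers and 0.91 in the 7 KO livers, higher there than for 99.3% of genes. Apoe was nearest to ENSMUSG00000063897, which has no symbol in the table used, with 0.94 and 0.83. Apoa1 was nearest to Gmeb2 (0.97 and 0.64), Mttp to Nrp1 (0.89 and 0.61), Apoc1 to Nkiras1 (0.92 and 0.18) and Apoc3 to Magix (0.88 and 0.18). Apoa2 and Ech1 (0.89 and -0.07), Apoa5 and Rab3a (0.92 and -0.04) and Apob and Erap1 (0.92 and -0.23) did not keep their r in the KO livers.

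In muscle only Apoe, Apoc1 and Mttp were well above 0. Apoe was at 35.9 to 82.0 CPM in WT libraries (median 60.3) and 43.9 to 131 CPM in those labelled KO (median 59.3). The highest library, labelled KO, stood apart from the others, and the rest overlapped with WT. Apoc1 was at 0.463 to 1.70 CPM in WT libraries (11 to 51 reads) and 0.447 to 3.48 CPM in those labelled KO (12 to 107 reads). Mttp was at 2.16 to 2.94 CPM in WT libraries (47 to 81 reads) and 1.72 to 3.68 CPM in those labelled KO (43 to 114 reads). The wider spread of the libraries labelled KO went to both sides of WT for Mttp.

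**Figure D4:**
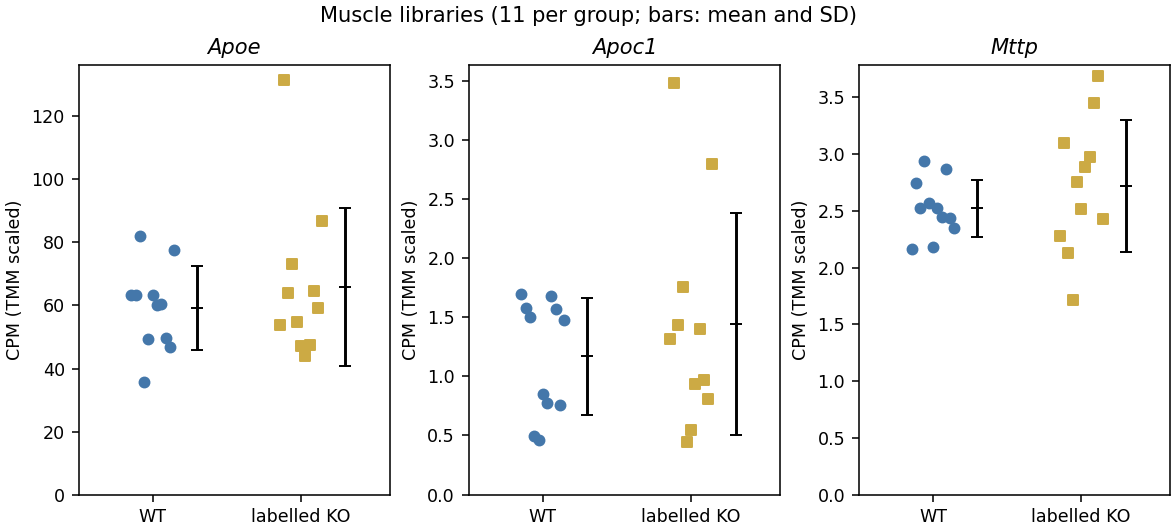
CPM (y axis, from 0) of Apoe, Apoc1 and Mttp in each muscle library, for 11 WT libraries and 11 labelled KO, with bars for mean and SD beside the points. The groups overlap for all 3 genes, and 1 library labelled KO has the highest Apoe, at 131 CPM.

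None of the 3 differed by genotype in the test. The log2 fold change of the libraries labelled KO against WT was 0.16 for Apoe (SE 0.16, adjusted p = 0.80), 0.32 for Apoc1 (SE 0.31, adjusted p = 0.79) and 0.11 for Mttp (SE 0.11, adjusted p = 0.78, by the same edgeR test). Much of the difference lay in 1 mouse labelled KO, since without mouse 561 it was 0.0074 for Apoe and 0.10 for Apoc1. Apoc1 was at 3.48 CPM in mouse 561 and 2.80 CPM in mouse 611, and at or under 1.76 CPM in the other 9. Only 0.00754% of the 13266 genes tested in muscle passed (1 gene), and 0 of the 3 were at an unadjusted p under 0.05, against 8.64% of all genes. The other 7 members did not pass the filter on low counts. Of the 8 lists of related genes none had a gene past the threshold in muscle. The smallest p among HDL genes was that of Abca1, which loads lipid onto Apoa1, at 0.19 (SE 0.07, adjusted p = 0.51), and among transcription factors that of Mlxipl at -0.13 (SE 0.04, adjusted p = 0.51).

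Whether the genotype difference itself differed between tissues was tested by the interaction over all 44 libraries. It was 0.13 for Apoe (SE 0.23, adjusted p = 0.79), 0.15 for Apoc1 (SE 0.35, adjusted p = 0.85) and -0.23 for Mttp (SE 0.15, adjusted p = 0.41), as log2 fold change in liver minus that in muscle, by edgeR's test. Only 0.00678% of 14739 genes passed, which was Slc16a13 itself. All 10 members entered this test, 7 of them through their level in liver. The terms of these 7 rest on few muscle reads (0 to 16 per library for Apob), and their tests are not given. Without the 4 mice with a liver length slope below 0, the interaction of Apoe was -0.21 and that of Apoc1 -0.32. Liver and muscle levels of the same mice gave no relation past the adjustment. In WT mice Pearson's r was 0.04 for Apoe, -0.45 for Apoc1 and -0.02 for Mttp (permutation p = 0.90, 0.17 and 0.95, adjusted p = 0.95, 0.81 and 0.95 over 6 relations, n = 11). Spearman's rho was -0.09, -0.39 and -0.01 (permutation p = 0.80, 0.24 and 0.99). Without the 2 mice farthest from the median, r was -0.29, -0.91 and 0.28.

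Between tissues of WT mice all 3 were higher in liver. Apoc1 was higher by a log2 fold change of 11.33 (SE 0.20, adjusted p = 4.9e-26), Apoe by 8.07 (SE 0.16, adjusted p = 6.5e-25) and Mttp by 7.31 (SE 0.07, adjusted p = 1.2e-30, all from edgeR's test), in 11 of 11 mice each. Of 13907 genes tested, 91.0% passed (91.2% at an unadjusted p under 0.05), so a pass was common. The other 7 entered this test through their level in liver and their tests are not given. Among related genes, Sort1, a sorting receptor for Apob, was at -3.92 (SE 0.11), Lpl, the lipase of muscle capillaries, at -4.41 (SE 0.20) and Vldlr, a receptor for remnants, at -6.02 (SE 0.15), all higher in muscle with an adjusted p of at most 1.1e-16. Lsr, a lipoprotein receptor (6.42, SE 0.06), was higher in liver. The lists include genes that passed the filter through 1 tissue alone, whose direction follows from that filter. Of 20 tested genes of assembly and secretion, 14 were higher in liver and 5 in muscle. So were 8 and 2 of 10 HDL genes, 9 and 1 of 11 receptors and 17 and 2 of 20 transcription factors. Over all 13907 genes tested, 6321 passed as higher in liver and 6332 as higher in muscle.

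Reads on the other 7 genes were few in muscle. Over 11 WT libraries there were 21 reads on Apoa1, 45 on Apoa2, 4 on Apoa4, 9 on Apoa5, 23 on Apob, 9 on Apoc2 and 8 on Apoc3. Over 11 libraries labelled KO there were 54, 102, 17, 10, 58, 18 and 27. The sum over libraries was higher in those labelled KO for 7 of 7. With no filter on low counts, 55.8% of 24232 genes had a positive log2 fold change in muscle. Each of the 10 hepatocyte markers also had a higher sum in those labelled KO. Alb, the main protein of hepatocytes, had 262 and 629 reads. Single libraries held a large part of these sums, with up to 47 reads on Apoa2 and up to 158 on Alb in 1 library labelled KO. No fold change is given for these genes, whose counts were at or under 3 reads in 8 to 11 of the 11 WT libraries. The mean muscle level, in ppm of the mean liver level, was 6.29 to 21.5 ppm in WT mice for Apoa1, Apoa2, Apoa4, Apoa5, Apob and Apoc3. For 9 of the 10 hepatocyte markers it was 7.03 to 35.6 ppm, and for Alb 13.5. For Apoc2 it was 91.4 ppm, from 9 reads. Apoc1, at 400.1 ppm, Apoe, at 3825 and Mttp, at 6447, lay above all of these, and the marker Cyp2e1 was at 571 ppm.

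**Figure D5:**
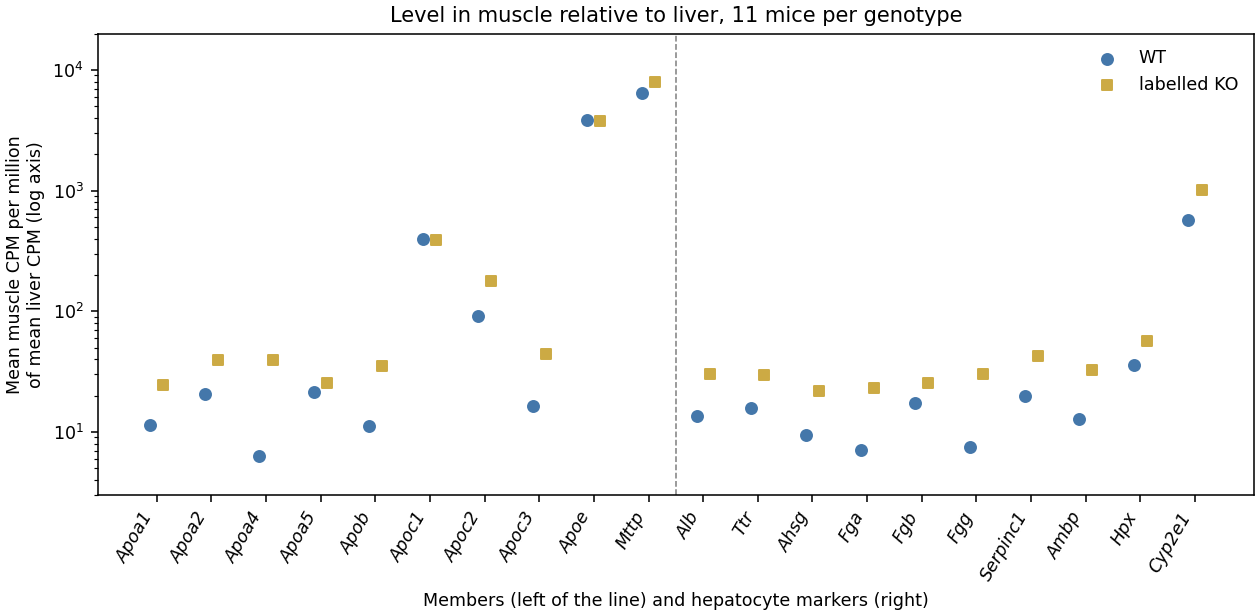
Mean muscle CPM in ppm of mean liver CPM, with CPM scaled to library size (y axis, log scale), for the 10 genes left of the dashed line and 10 hepatocyte markers right of it, with circles for WT mice and squares for those labelled KO. Apoe and Mttp lie highest, from 3794 to 7961 ppm, and 6 of the other members lie with Alb and most markers between 6.29 and 44.2 ppm.

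Levels in muscle were set beside markers of other cell types. Over the 22 muscle libraries, log2 CPM of Apoc1 and the log2 of the summed hepatocyte markers had r = 0.80 (permutation p = 3e-05, adjusted p = 3e-04 over 10 members) and rho = 0.63 (permutation p = 0.0022, adjusted p = 0.015). Within WT libraries r was 0.83 (adjusted p = 0.018) and rho 0.69 (adjusted p = 0.11, permutation test). Within those labelled KO r was 0.84 (adjusted p = 0.013) and rho 0.66 (adjusted p = 0.10, permutation test), so rho passed in neither. Without the 2 farthest libraries r was 0.67 over all 22, 0.77 in WT and 0.55 in those labelled KO. For Apoe r was 0.71 (permutation p = 0.00045, adjusted p = 0.0023) and rho 0.48 (permutation p = 0.024, adjusted p = 0.040), but r was 0.33 without the 2 farthest libraries, so the relation rested on those. Within WT libraries r was 0.63 (adjusted p = 0.19) and within those labelled KO 0.76 (adjusted p = 0.049), by permutation. Mttp had r = 0.18 (permutation p = 0.41, adjusted p = 0.41) and rho = 0.10 (permutation p = 0.66). Cyp2e1 made up most of that sum, with a mean of 7.25 CPM in WT muscle against 0.924 for Alb. All 10 markers had counts, with a median of 0 for Ttr, Fga, Fgg and Ambp in WT libraries and for Fgg and Ambp in those labelled KO, where the sum was 4.32 to 57.1 CPM.

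With Alb alone as the marker, Apoe had r = 0.13 (permutation p = 0.56, adjusted p = 0.60) and rho = 0.05 (permutation p = 0.81), and Apoc1 r = 0.46 (permutation p = 0.033, adjusted p = 0.042) and rho = 0.31 (permutation p = 0.16). Apoa1 had r = 0.85 and rho = 0.81 with Alb over both labels pooled, on counts of 0 to 14 reads. It was at or under 3 reads in 9 of 11 WT libraries, so these values only describe the counts. No r with Alb was computed within a label. The summed adipocyte markers, compared after the data had been seen, followed both Apoc1 (r = 0.89 and rho = 0.88, permutation p = 1e-05 for each, adjusted p = 5e-05 and 0.00015 over 15 relations) and Apoe (r = 0.84 and rho = 0.75, permutation p = 1e-05 and 1e-04, adjusted p = 5e-05 and 5e-04). Within WT libraries r was 0.86 for Apoc1 and 0.81 for Apoe, within those labelled KO 0.90 and 0.86, and without the 2 farthest 0.83 and 0.71. Macrophage markers gave r = 0.76 for Apoc1 and 0.80 for Apoe (permutation p = 5e-05 and 1e-05, the smallest that 100000 resamples can give). Endothelial markers gave 0.58 and 0.64 (adjusted p = 0.010 and 0.0047, permutation test). Fibroblast markers gave 0.34 and 0.52 (adjusted p = 0.18 and 0.028, permutation test). Muscle fibre markers gave -0.60 and -0.51 (adjusted p = 0.0073 and 0.028, permutation test). These relations were thus not particular to adipocyte and macrophage markers. Adipocyte markers summed to 261 to 788 CPM in WT muscle and 338 to 1716 CPM in those labelled KO. Mttp had r = -0.14 with adipocyte markers (permutation p = 0.54) and 0.01 with macrophage markers (permutation p = 0.97). The part of these cells in the muscle levels was not tested.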

How the data were processed

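Liver and skeletal muscle RNA-Seq of 11 WT and 11 KO mice was analysed, with groups taken from the labels. The authors deposited raw read counts per gene and RPKM values. The aligner, the counting program, strand use and genome build are not given in the sources used here, so reads of overlapping genes may be shared. Libraries were pooled for sequencing, and which shared a pool is not given either.

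Differences were tested on the counts with edgeR 4.0.16 in R 4.3.3, after filterByExpr and TMM scaling, and p-values were adjusted over all genes tested (threshold 0.05). CPM were scaled by TMM within a tissue, and log2 CPM had a prior count of 2. The floor was set at 3 reads and covers counting error only. Correlations used 100000 resamples, or all permutations for 7 mice (SciPy 1.17.1). Gene length was the median implied by counts and RPKM.

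The members and lists were chosen with earlier results of these data known. Named were all members, the gene with the smallest p of a list, the largest past the threshold, and for each member the gene with the highest r in WT liver (5 for the most variable member). Apoc4, Alb and Cyp2e1 were named after their values were seen. Some genes that this rule names are not reported here.

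Each animal number occurs once per tissue, and both libraries were taken to come from that mouse. Over 11607 genes, deviations from group means had a mean r of 0.10 within a mouse (-0.03 to 0.26 over 22 mice) and -0.01 between mice. No pair of a group agreed within sampling noise. Alternatives were DESeq2 1.42.0, limma 3.58.1, which the study names, other scalings and filters, gene length as offset, RPKM with pseudocounts of 0.1 and 1, the mouse as block and each mouse left out in turn. The relations with markers other than hepatocyte ones and the scalings of the 4 livers with a length slope below 0 were added after the data had been seen. The fits were tested on simulated data.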

Additional observations from a re-analysis of the deposited data

Results flagged for a closer look

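One result was marked for a closer look, the deleted gene itself. The genotype difference of Slc16a13 in liver minus that in muscle was -6.08 on the log2 scale (SE 0.38, adjusted p = 5.9e-16 for the interaction in edgeR). Apoe, Apoc1 and Mttp did not pass that test, and the tests of the other members, with few reads in muscle, are not given. Groups of 11 are too large for the check of single samples that stand apart.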

How the results depend on the processing

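None of the 10 genes passed the liver test under any of the 33 alternatives, and of 450 recomputed values of the members 430 kept their direction and side of the threshold. Counts of genes called in liver were 6 with DESeq2, 1 with at least 10 counts in every library, 4 with no filter, 2 with length as offset and 3 under the other settings (3 to 3 with each mouse left out). In muscle they were 0 with voom, sample weights, no filter, at least 10 counts and either RPKM pseudocount (1 to 1 with each mouse left out). In the interaction they were 3 with library size alone, which moved the median of all genes from -0.03 to -0.11, and 2 with length as offset. Member pairs past the threshold in WT liver were 3 with length removed and 3 in RPKM, against 1, and Apoa4 with Apoc2 was among them each time (r 0.90 to 0.92). Relations with hepatocyte markers past the threshold were 8 with Alb alone, 2 in libraries labelled KO alone and 1 in WT alone, against 3. The 8 were those of Apoc1 and of the members with few reads in muscle, and Apoa1, also with few reads, was among the 3.

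Signs turned in liver without the 4 KO livers for Apoa2 (-0.0141), Apoa5 (-0.14), Apob (0.0261), Apoc2 (-0.16), Apoc3 (-0.0257), Apoe (-0.0286) and Mttp (0.0177). They turned with sample weights for Apoa5 (-0.087), Apoc2 (-0.19) and Mttp (0.0061), with library size alone or RPKM for Apoa5 (-0.0235, -0.0357 and -0.0356) and with length as offset for Apoc2 (-0.13). With each mouse left out in turn, Apoa5 ran from -0.0043 (without KO mouse 602) to 0.0954 and Apoc2 from -0.0178 (without KO mouse 532) to 0.1974. The number at an unadjusted p under 0.05 ran from 1 (without KO mouse 602) to 6 (without KO mouse 597), and was 5 without WT mouse 537 or KO mouse 561, 588 or 611. In the interaction, length as offset turned Apoe (-0.0541) and Apoc1 (-0.15), as did leaving out the 4 mice (-0.21 and -0.32). The cause was not tested.

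With the mouse as replicate block the interaction called 1 gene and the tissue comparison 12674 (12653 without), and the block changed no call of the members. Reads on 7 members in muscle were too few for a fold change.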
